A study of Mus musculus with 15 samples.

Results

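The writers and erasers of DNA methylation were followed as a set of 9 genes, picked by symbol from the 23412 genes counted in mouse embryonic stem cells (mESCs) that had lost or been depleted of the cohesin subunits STAG1 and STAG2. The set holds the methyltransferases Dnmt1, Dnmt3a and Dnmt3b, the catalytically inactive cofactor Dnmt3l, the maintenance partner Uhrf1, the dioxygenases Tet1, Tet2 and Tet3, and the glycosylase Tdg. Of these, 8 passed the filter on low counts that 14508 of all genes passed, and Tdg did not. PolyA RNA of male v6.5 mESCs grown on gelatin was sequenced in 15 libraries, 3 for each of 5 conditions, 48 hours after transfection with 50 nM of either siGLO, a control siRNA, or siStag1, directed against Stag1. siGLO was given to wild-type, Stag1-/- and Stag2-/- cells, and siStag1 to wild-type and to Stag2-/- cells, so that all cells were transfected and Stag2-/- siStag1 cells combined loss of STAG2 with depletion of STAG1. Each knockout genotype was a single CRISPR clone, so a genotype and its clone cannot be told apart. The study calls its RNA-seq replicates biological without saying what was separate between them, and the p-values measure the spread between these libraries.

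In mammals, methyl groups are added to cytosines that precede a guanine. DNMT3A and DNMT3B methylate new sites, with DNMT3L as a cofactor that is high in germ cells and ESCs, and DNMT1 copies the pattern onto the daughter strand after replication, where UHRF1 recruits it to hemimethylated sites. TET enzymes oxidise methylcytosine, and TDG cuts out the oxidised bases so that base excision repair can restore cytosine. In the mouse, naive ESCs hold TET1 and TET2 and keep DNMT3A and DNMT3B low, and cells that move toward the epiblast of the implanting embryo gain the de novo enzymes and exchange TET2 for TET3.

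De novo writers rose, and the erasers divided, in the cells that had lost STAG2 and been depleted of STAG1. Relative to wild-type siGLO cells, Dnmt3b rose 3.67-fold, Tet3 2.08-fold and Dnmt3a 2.03-fold, whereas Tet2 fell 2.76-fold and Tet1 1.66-fold. Dnmt3b also rose and Tet2 also fell in each single knockout, Dnmt3b 1.85-fold in Stag1-/- and 2.87-fold in Stag2-/- siGLO cells and Tet2 1.46-fold and 1.45-fold. The maintenance genes Dnmt1 and Uhrf1 stayed within a range of group means from 409 ± 8.90 to 504 ± 32.6 CPM (counts scaled to the size of the library, mean ± SD, n = 3) for Dnmt1 and from 471 ± 16.0 to 547 ± 32.4 CPM for Uhrf1.

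**Figure D1:**
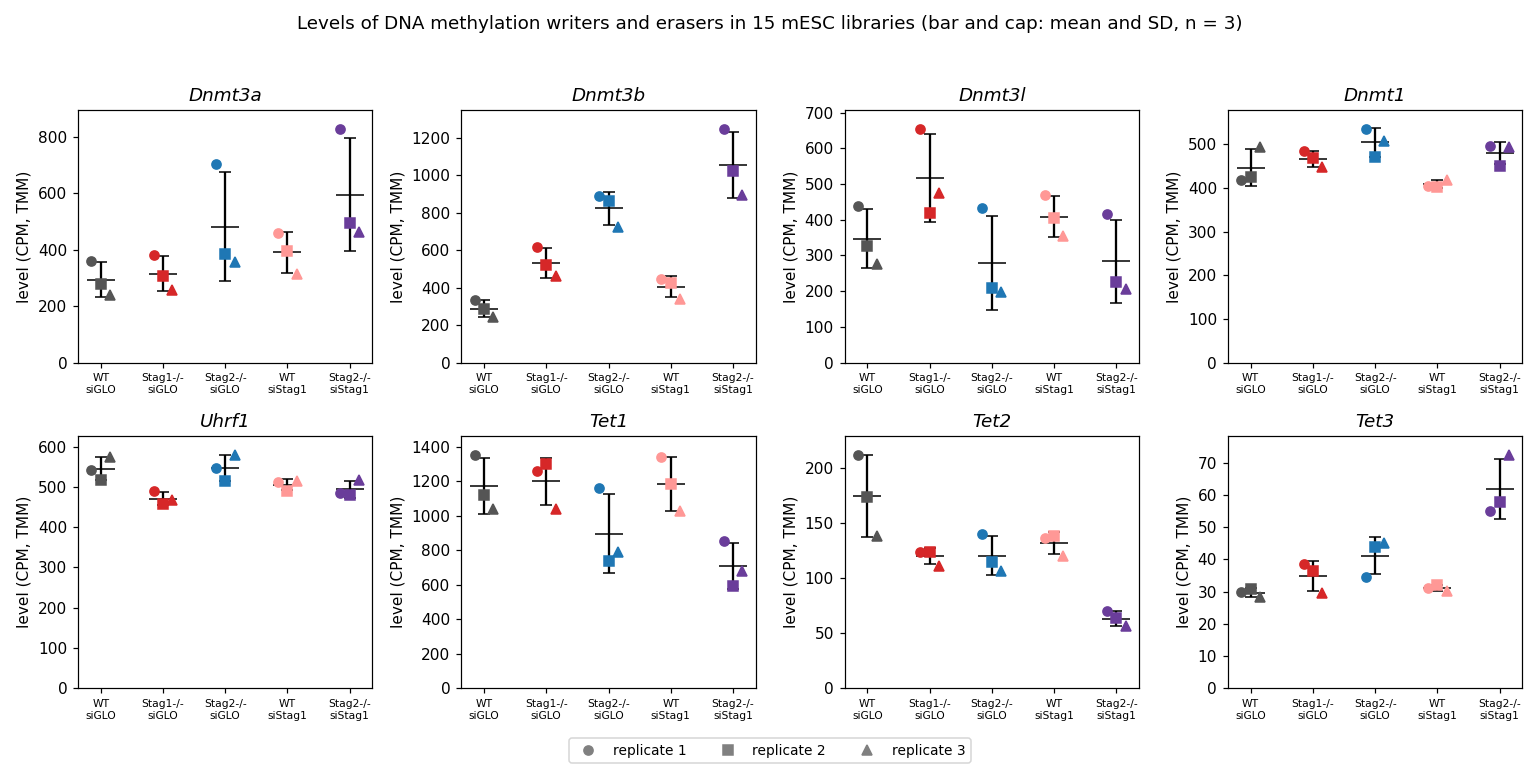
Level of each of the 8 tested genes in CPM on a linear axis from 0, for the 5 conditions, with 1 symbol per library, the symbol giving the replicate number, and the bar and caps giving mean and SD (n = 3). The 3 Stag2-/- siStag1 libraries lie at 898 to 1248 CPM for Dnmt3b, with a Stag2-/- siGLO library close below at 889 CPM. For Tet2 they lie at 56.4 to 69.9 CPM, below all other libraries.

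The 5′ ends of the 3 members with the largest changes are shown because they differ in how many of the sites that these enzymes act on they carry. Each run is the 250 bases before the first start listed by RefSeq, 5′ to 3′ on the gene's own strand in build GRCm38.p6, with every CG dinucleotide, the substrate of methylation, in capitals. Dnmt3b lies on the plus strand of chromosome 2, and the stretch shown is chr2:153649199-153649448. Tet2 lies on the minus strand of chromosome 3, at chr3:133544391-133544640. Tet3 lies on the minus strand of chromosome 6, at chr6:83441679-83441928.
Dnmt3b: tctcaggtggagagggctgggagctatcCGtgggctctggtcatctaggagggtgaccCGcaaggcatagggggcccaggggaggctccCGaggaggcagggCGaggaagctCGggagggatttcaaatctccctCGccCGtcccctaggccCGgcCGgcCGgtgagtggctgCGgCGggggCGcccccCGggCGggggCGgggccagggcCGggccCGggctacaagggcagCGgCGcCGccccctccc
Tet2: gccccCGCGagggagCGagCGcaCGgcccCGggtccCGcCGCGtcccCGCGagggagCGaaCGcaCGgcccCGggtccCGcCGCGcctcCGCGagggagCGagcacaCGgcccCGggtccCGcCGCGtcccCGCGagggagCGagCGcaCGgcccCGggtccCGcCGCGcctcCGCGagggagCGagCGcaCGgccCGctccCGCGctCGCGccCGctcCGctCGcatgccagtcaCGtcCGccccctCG
Tet3: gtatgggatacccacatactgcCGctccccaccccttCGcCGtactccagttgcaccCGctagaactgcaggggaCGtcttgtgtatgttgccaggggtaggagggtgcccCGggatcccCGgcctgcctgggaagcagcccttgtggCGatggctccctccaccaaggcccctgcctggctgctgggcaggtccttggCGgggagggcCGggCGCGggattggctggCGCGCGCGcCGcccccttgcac
Over the full 300 bases that also take in the first 50 of the transcript, Tet2 held 57 CG dinucleotides, more than 99.8% of 32851 RefSeq promoters of that length, whose median was 7. The same window held 30 in Dnmt3b, 22 in Tet3 and 17 in Tet1. The letters GGGNGTGG, a form of the site bound by KLF factors, were found on either strand in 17.6% of all promoters. They occurred once in the Dnmt3b window, once in both Uhrf1 windows and 2 times each in 2 of the 3 Dnmt3l windows, and in no window of the other 6 members. Neither the letters TCAAGGTCA of ESRRB nor GGTCTCTAA of PRDM14 were found in any window of the 9 members, and 0.423% and 0.256% of all promoters held them. Of the 2 forms of the E2F site searched, TTTCCCGC was in no window and TTTGGCGC in 1 of the 3 Dnmt1 windows, beside 1.07% and 0.514% of all promoters, and the TATA box letters TATAAA, held by 13.6% of promoters, were in no window. These matches describe letters in a window and nothing about binding.

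The libraries held 14982560 to 19070126 counts on genes, with a median of 17700059. The lowest count of any tested member in any library was 465, for Tet3, which leaves a counting error of 4.64% (coefficient of variation). That is not small beside the Tet3 spread in wild-type siGLO (29.7 ± 1.27 CPM) and wild-type siStag1 cells (31.1 ± 0.897 CPM, mean ± SD, n = 3). Stag1, whose siRNA was used, stood at 123 ± 7.93 CPM in wild-type siGLO cells, 25.4 ± 4.77 in wild-type siStag1 cells and 39.8 ± 4.55 in Stag2-/- siStag1 cells (mean ± SD, n = 3). Stag2 stood at 134 ± 0.184 CPM in wild-type siGLO cells and 39.8 ± 2.35 in Stag2-/- siGLO cells. In Stag1-/- siGLO cells Stag1 RNA was at 116 ± 17.2 CPM, and since that clone carries an in-frame deletion the Stag1 count does not check its label. In these bulk samples, fewer cells of a type and less RNA per cell cannot be told apart.

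All 8 tested members passed a test for any difference among the 5 conditions, as did 50.7% of the 14508 genes tested (edgeR's quasi-likelihood test with Benjamini-Hochberg adjustment over all genes, adjusted p under 0.1). The adjusted p ran from 5.55e-07 for Dnmt3b, 1.32e-05 for Tet2 and 2.6e-05 for Tet3 to 0.0678 for Uhrf1 and 0.0773 for Dnmt3l in that edgeR test. With 1 library left out, 9 of 15 fits lost that call for Dnmt3l, 7 for Uhrf1 and 2 for Dnmt1 (without wild-type siStag1 replicate 1 or 2), and none for the other 5. The same fit gave each pair of conditions. Against wild-type siGLO cells, 3 of the 8 were called in Stag1-/- siGLO cells, where 20.0% of all genes were called (10.1% higher and 9.93% lower), and 4 of 8 in Stag2-/- siGLO cells, where 28.3% were (13.9% higher and 14.4% lower). With the replicate number as a block these were 4 of 8, beside 30.6% of all genes, with Dnmt3l added, and 7 of 8, beside 39.4%, with Dnmt1, Dnmt3l and Tet1 added. In Stag2-/- siStag1 cells 5 of 8 were called, against a background of 43.9% (22.6% higher and 21.3% lower). These 3 comparisons use the same wild-type siGLO libraries. Complete separation of the libraries of 2 conditions was frequent among all genes. Against wild-type siGLO cells it held for 31.7% of genes in Stag1-/- siGLO, 35.7% in Stag2-/- siGLO and 47.3% in Stag2-/- siStag1 cells. Among the 8 members it held for 3, 2 and 6 in that order.

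Depletion of Stag1 in wild-type cells gave 0 calls among the 8 by edgeR and 0 by DESeq2, beside 0.248% of all genes by edgeR (0.103% higher and 0.145% lower), and 2 of the 8 had an unadjusted p under 0.05. That comparison called few genes of any kind, 36 in all by edgeR and 131 by DESeq2, although 922 genes had an unadjusted p under 0.05. Libraries that share a replicate number deviated together in this comparison, and with the number as a block 3 of the 8 passed, among 1.63% of all genes.

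**Figure D2:**
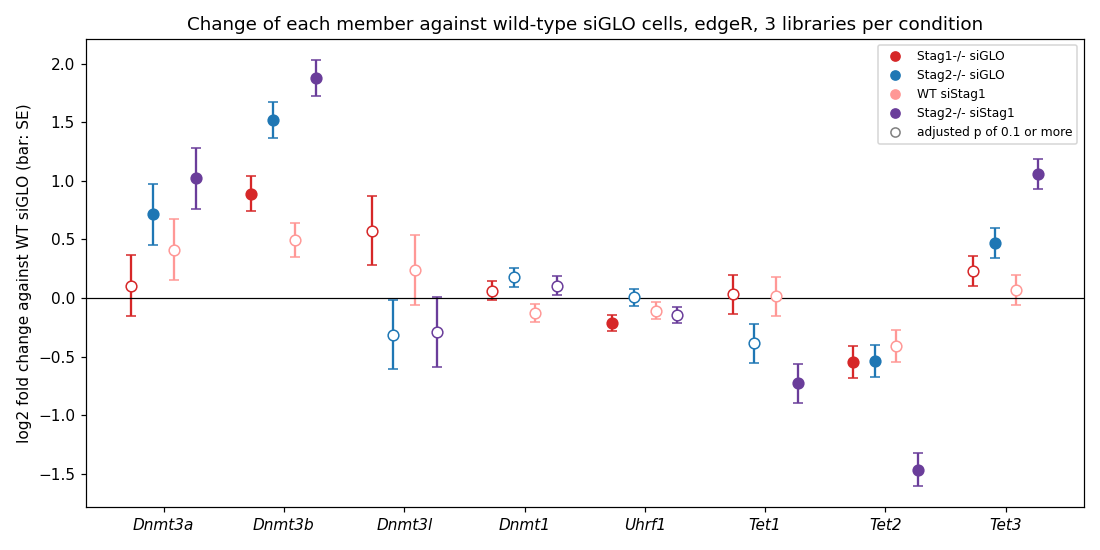
Log2 fold change of each tested member against wild-type siGLO cells, with SE bars from the edgeR fit of all 15 libraries, for the 4 other conditions. Filled points have an adjusted p under 0.1, open points do not, and every filled Dnmt3b point lies above 0 and every filled Tet2 point below it.

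Dnmt3b, a de novo methyltransferase, carried the largest change. It stood at 333, 289 and 242 CPM in the 3 wild-type siGLO libraries, in the order of replicates 1 to 3, and at 449, 425 and 342 CPM in wild-type siStag1 cells. In Stag1-/- siGLO cells it stood at 618, 522 and 461 CPM, in Stag2-/- siGLO cells at 889, 861 and 723 CPM and in Stag2-/- siStag1 cells at 1248, 1024 and 898 CPM. Each condition lay wholly above the one before it in that order, with the narrowest gap between Stag2-/- siGLO and Stag2-/- siStag1 cells. The same neighbouring conditions separated in 15.5%, 32.4%, 31% and 19.3% of all genes. The log2 fold change against wild-type siGLO cells was 0.89 ± 0.15 (SE), edgeR adjusted p = 0.000737 in Stag1-/- siGLO cells. In Stag2-/- siGLO cells it was 1.52 ± 0.15 (SE), edgeR adjusted p = 7.16e-06, and in Stag2-/- siStag1 cells 1.88 ± 0.15 (SE), edgeR adjusted p = 2.03e-07. These 3 calls held under all 15 alternatives run for each of them, with values from 0.77 to 1.01, 1.41 to 1.64 and 1.74 to 1.99.

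The knockouts also differed from each other in Dnmt3b. It was lower in Stag1-/- than in Stag2-/- siGLO cells by a log2 fold change of -0.63 ± 0.15 (SE), edgeR adjusted p = 0.00788, in a comparison that called 4 of the 8 members and 25.7% of all genes. After siStag1 the value in wild-type cells was 0.49 ± 0.15 (SE), edgeR adjusted p = 0.351, and with the replicate number as a block it passed, at 0.50 ± 0.061 (SE), edgeR adjusted p = 0.00105. In Stag2-/- cells siStag1 gave 0.36 ± 0.15 (SE), edgeR adjusted p = 0.218, and the blocked value passed as well (edgeR adjusted p = 0.00147). Reads from 2.49% of the distinct 150-base stretches of Dnmt3b transcripts could also come from Dnmt3c, a close paralog, so a small part of its count is uncertain.

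Dnmt3a, the other de novo enzyme, varied more within conditions. Its levels were 362, 279 and 239 CPM in wild-type siGLO cells, 704, 385 and 355 CPM in Stag2-/- siGLO cells and 827, 495 and 463 CPM in Stag2-/- siStag1 cells. In each of these conditions replicate 1 was the highest, and in the Stag2-/- background it stood far above the other two. The log2 fold change was 1.02 ± 0.26 (SE), edgeR adjusted p = 0.00627 in Stag2-/- siStag1 cells, whose 3 libraries all lay above the wild-type siGLO ones. In Stag2-/- siGLO cells it was 0.72 ± 0.26 (SE), edgeR adjusted p = 0.0638, and that call rested on single libraries. Without replicate 1 of Stag2-/- siGLO cells the value was 0.34 (edgeR adjusted p = 0.338), and the call was also lost without wild-type siGLO replicate 2 or 3, at 0.68 and 0.59, and with DESeq2 (adjusted p = 0.103). Dnmt3a stood at 382, 305 and 259 CPM in Stag1-/- siGLO cells, overlapping the wild-type siGLO libraries (0.10 ± 0.26 (SE), edgeR adjusted p = 0.843). Wild-type siStag1 cells held 461, 396 and 313 CPM, a change of 0.41 ± 0.26 (SE), edgeR adjusted p = 0.958, with a blocked edgeR adjusted p of 0.0647. Between the knockouts the Dnmt3a value was -0.61 ± 0.26 (SE), edgeR adjusted p = 0.116. It passed with the block (-0.57 ± 0.099, edgeR adjusted p = 0.00046), with library size alone, with no expression filter, without Stag2-/- replicate 2 or 3 (-0.75 and -0.79) and without replicate 1 of all conditions (-0.39).

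Dnmt3l, which helps the de novo enzymes without methylating DNA itself, followed neither of them. Stag1-/- siGLO cells held 654, 419 and 476 CPM and Stag2-/- siGLO cells 432, 208 and 197 CPM, beside 438, 326 and 276 CPM in wild-type siGLO cells. Replicate 1 was again the highest in each condition, and its level in Stag2-/- siGLO cells overlapped the Stag1-/- range. Against wild-type siGLO cells neither knockout was called, at 0.57 ± 0.3 (SE), edgeR adjusted p = 0.223 for Stag1-/- and -0.31 ± 0.3 (SE), edgeR adjusted p = 0.487 for Stag2-/-. Blocking on the replicate number gave 0.58 ± 0.13 and -0.37 ± 0.13, and both then passed, at edgeR adjusted p of 0.00346 and 0.0348. The direct comparison of Stag1-/- with Stag2-/- siGLO cells gave 0.89 ± 0.3 (SE), edgeR adjusted p = 0.0481. That call was lost without Stag1-/- replicate 1, at 0.68, and without Stag2-/- replicate 2 or 3, at 0.72 and 0.69. Stag2-/- siStag1 cells held 417, 225 and 207 CPM and wild-type siStag1 cells 469, 405 and 353 CPM. Their changes against wild-type siGLO cells were -0.29 ± 0.3 (SE), edgeR adjusted p = 0.471 and 0.24 ± 0.29 (SE), edgeR adjusted p = 0.999. With the block, although the numbers do not pair all of its libraries, the first was -0.33 ± 0.13 and passed (edgeR adjusted p = 0.0415).

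The maintenance pair spanned a narrow range. Dnmt1 stood at 419, 426 and 495 CPM in wild-type siGLO cells, and no other condition was called against them. Its group means spanned a log2 fold change of -0.13 ± 0.08 for wild-type siStag1 to 0.18 ± 0.08 for Stag2-/- siGLO cells, and the second value passed with the replicate block (edgeR adjusted p = 0.0636) and without wild-type siGLO replicate 3, at 0.25. Dnmt1 was higher in Stag2-/- siStag1 than in wild-type siStag1 cells, at 495, 451 and 494 against 405, 402 and 419 CPM. The libraries did not overlap, as in 45.3% of all genes, and the log2 fold change was 0.23 ± 0.08 (SE), edgeR adjusted p = 0.0378. Leaving out wild-type siStag1 replicate 2 or Stag2-/- siStag1 replicate 3 ended that call, at 0.22 and 0.21, as did leaving out replicate 1 of all conditions, at 0.19.

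Uhrf1, which brings DNMT1 to newly replicated DNA, was lower in Stag1-/- siGLO cells than in every wild-type siGLO library, at 489, 457 and 467 against 543, 518 and 575 CPM. The log2 fold change was -0.21 ± 0.071 (SE), edgeR adjusted p = 0.0576, the smallest among the calls against wild-type siGLO cells. It lost its call without wild-type siGLO replicate 1 or 3 or Stag1-/- replicate 2 or 3, at values from -0.17 to -0.21, and with no expression filter or with only the libraries compared. Uhrf1 was also lower in Stag1-/- than in Stag2-/- siGLO cells, whose libraries held 546, 515 and 580.1 CPM (-0.22 ± 0.071 (SE), edgeR adjusted p = 0.0443). That call was lost without Stag1-/- replicate 2 or Stag2-/- replicate 3, at -0.20 and -0.17, and in the same 2 alternative fits. Of 12 S-phase genes listed beside it, because UHRF1 and DNMT1 are made as cells replicate, 4 were lower and 0 higher in Stag1-/- siGLO cells, beside 9.93% and 10.1% of all genes (6 and 1 with the replicate block, beside 30.6% called in either direction), among them Rrm2, a subunit of ribonucleotide reductase (-0.40 ± 0.095), and the helicase loader Cdc6 (-0.19 ± 0.073). The median of the 12 was -0.19, beside -0.01 for all genes tested, and their part in the Uhrf1 value was not tested.

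Among the erasers, Tet2 fell furthest. Its 3 libraries stood at 212, 174 and 138 CPM in wild-type siGLO cells and at 69.9, 63.8 and 56.4 CPM in Stag2-/- siStag1 cells, which lay below every library of the other conditions. Stag1-/- siGLO cells held 124, 124 and 111 CPM, Stag2-/- siGLO cells 140.4, 115 and 107 CPM and wild-type siStag1 cells 136, 139 and 120.3 CPM. The log2 fold change against wild-type siGLO cells was -0.54 ± 0.14 (SE), edgeR adjusted p = 0.0136 in Stag1-/- siGLO cells and -0.54 ± 0.14 (edgeR adjusted p = 0.0117) in Stag2-/- siGLO cells. Between the knockouts the Tet2 difference was -0.01 ± 0.14 (SE), edgeR adjusted p = 0.974. In Stag2-/- siStag1 cells the value was -1.46 ± 0.14 (SE), edgeR adjusted p = 1e-06. All 3 of these calls held under the 15 alternatives run for each.

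Depletion of Stag1 lowered Tet2 in Stag2-/- cells by a log2 fold change of -0.93 ± 0.14 (SE), edgeR adjusted p = 0.00106. That comparison called 2 of the 8 members, Tet2 and Tet3, beside 6.37% of all genes, and with the replicate block 5 of 8 beside 14.1%. The 3 added by the block were Dnmt3a, Dnmt3b and Tet1. In wild-type cells the same siRNA gave -0.41 ± 0.14 (SE), edgeR adjusted p = 0.487 for Tet2, with a blocked edgeR adjusted p of 0.0292. Whether the siRNA acted differently on the 2 genotypes was tested directly, as a difference of differences, and 0 of the 8 members passed in edgeR beside 0.159% of all genes. For Tet2 the difference was -0.52 ± 0.19 (SE), edgeR adjusted p = 0.634 and for Tet3 0.52 ± 0.18 (SE), edgeR adjusted p = 0.583, and these 2 had an unadjusted p under 0.05, as 842 genes did. DESeq2 called 102 genes in that test against 23 by edgeR, and no member under either. With the replicate number as a block Tet2 passed, at -0.53 ± 0.12 (edgeR adjusted p = 0.0489), although the numbers do not pair all libraries of that test.

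Tet1, the most abundant TET gene of ESCs, held 1354, 1122 and 1041 CPM in wild-type siGLO cells. Stag1-/- siGLO cells held 1257, 1297 and 1041 CPM and wild-type siStag1 cells 1338, 1185 and 1026 CPM, and the 3 conditions overlapped throughout. Stag2-/- siGLO cells held 1161, 736 and 792 CPM and Stag2-/- siStag1 cells 853, 594 and 677 CPM, with replicate 1 above the others in both. The fall in Stag2-/- siStag1 cells was -0.73 ± 0.17 (SE), edgeR adjusted p = 0.00321, with no overlap, as in 47.3% of all genes. In Stag2-/- siGLO cells the change was -0.39 ± 0.17 (SE), edgeR adjusted p = 0.116, which passed with the replicate block, at an edgeR adjusted p of 0.00585, with library size alone, without Stag2-/- replicate 1 (-0.62) and without replicate 1 of all conditions (-0.52). Between the knockouts Tet1 was higher in Stag1-/- cells (0.42 ± 0.17 (SE), edgeR adjusted p = 0.0961), a call lost without replicate 1 or 2 of Stag1-/- or replicate 2 or 3 of Stag2-/- cells, at values from 0.30 to 0.38, or with only the libraries compared.

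Tet3, the TET gene of the later epiblast and of many somatic cells, moved opposite to Tet1 and Tet2. It stood at 29.8, 30.9 and 28.4 CPM in wild-type siGLO cells, 34.5, 43.8 and 45.0 CPM in Stag2-/- siGLO cells and 55.1, 57.8 and 72.5 CPM in Stag2-/- siStag1 cells. The 3 sets did not overlap and lay in that order. The log2 fold change against wild-type siGLO cells was 0.47 ± 0.13 (SE), edgeR adjusted p = 0.0172 in Stag2-/- siGLO cells and 1.06 ± 0.13 (SE), edgeR adjusted p = 1.24e-05 in Stag2-/- siStag1 cells. Added depletion of Stag1 in Stag2-/- cells raised it by 0.59 ± 0.13 (SE), edgeR adjusted p = 0.0156, which held under 14 of 15 alternatives and not when only the libraries compared were fitted. The levels were 38.4, 36.3 and 29.6 CPM in Stag1-/- siGLO and 31.1, 32.0 and 30.2 CPM in wild-type siStag1 cells. Their changes were 0.23 ± 0.13 (SE), edgeR adjusted p = 0.27 and 0.07 ± 0.13 (SE), edgeR adjusted p = 0.999.

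**Figure D3:**
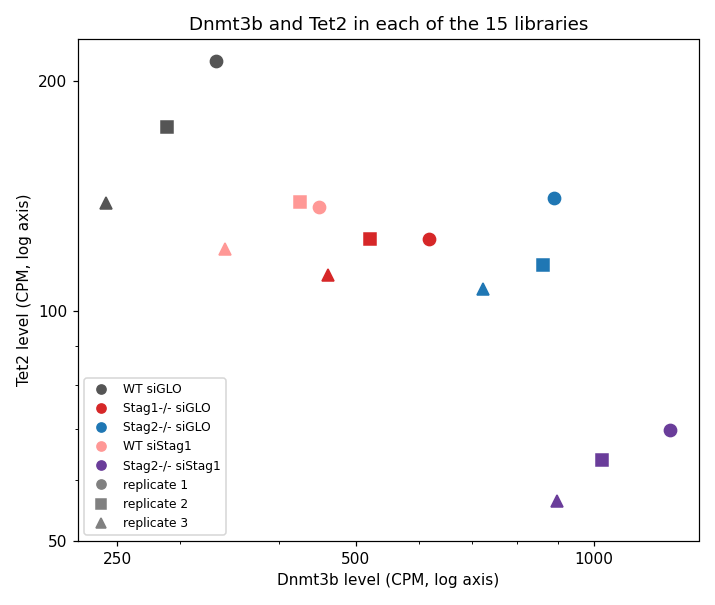
Dnmt3b level against Tet2 level, both in CPM on log axes, for each of the 15 libraries, with colour for the condition and symbol for the replicate number. Wild-type siGLO libraries lie at the upper left, Stag2-/- siStag1 libraries at the lower right, and within every condition replicate 3 has the lowest Dnmt3b and the lowest Tet2.

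Compared with wild-type siStag1 cells, which received the same siRNA, Stag2-/- siStag1 cells differed in 6 of the 8 members, beside 37.5% of all genes. Dnmt3b rose by 1.38 ± 0.15 (SE), edgeR adjusted p = 6.6e-06, Tet3 by 0.99 ± 0.13 and Dnmt3a by 0.61 ± 0.26, while Tet2 changed by -1.06 ± 0.14 and Tet1 by -0.74 ± 0.17 on the log2 scale (SE). The Dnmt3a call (edgeR adjusted p = 0.0893) was lost without wild-type siStag1 replicate 2 or 3 or Stag2-/- siStag1 replicate 1, where it was 0.62, 0.47 and 0.30, and with DESeq2. The sixth was Dnmt1, as given above. Stag1-/- siGLO cells, which lost STAG1 over many divisions, were set beside wild-type siStag1 cells, which lost Stag1 RNA acutely. There 1 of the 8 was called, beside 16.0% of all genes, namely Dnmt3b at 0.40 ± 0.15 (SE), edgeR adjusted p = 0.0995. That single call was lost without replicate 1 or 2 of Stag1-/- cells or any replicate of wild-type siStag1 cells, at values from 0.28 to 0.48, and with a filter of at least 10 counts in every library. With the replicate block, 4 of the 8 passed, beside 26.5%, and these were Dnmt1, Dnmt3a, Dnmt3b and Dnmt3l. The siRNA used differs between these conditions as well as the genotype, and the 2 cannot be told apart here.

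The balance among members was described per length, as CPM per kb of the exons annotated in GENCODE for build mm10, since longer transcripts collect more reads. On that scale Tet1 made up 86.3% ± 0.822 of the summed TET level in wild-type siGLO cells, Tet2 11.7% ± 0.949 and Tet3 2.04% ± 0.254 (mean ± SD, n = 3). In Stag2-/- siStag1 cells the shares were 85.8% ± 2.07, 7.13% ± 0.993 and 7.10% ± 1.64. Tet1 therefore remained the bulk of TET RNA in both, while Tet2 and Tet3 came to similar levels. The summed level went from 88.0 ± 12.7 to 53.3 ± 8.62 CPM per kb, and in the 3 conditions with intact Stag2 it stayed between 86.2 and 88.0. With the length of the longest transcript in place of all exons, the Tet2 and Tet3 shares of Stag2-/- siStag1 cells were 11.3% and 9.34%.

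**Figure D4:**
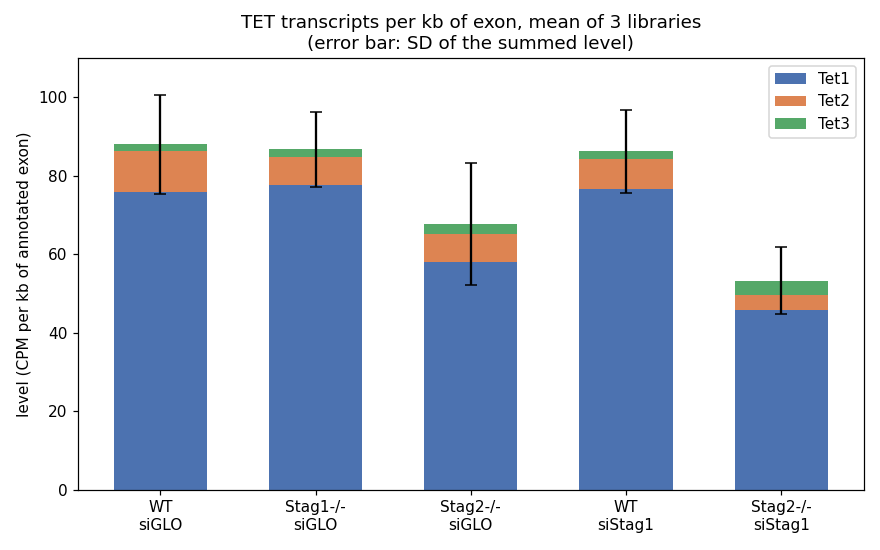
Stacked bars of Tet1, Tet2 and Tet3 in CPM per kb of annotated exon, mean of 3 libraries per condition, on a linear axis from 0, with the SD of the summed level as error bar. The sum is 88.0 in wild-type siGLO and 53.3 in Stag2-/- siStag1 cells, and the Tet3 part goes from 2.04% to 7.10% of it.

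On the same scale Dnmt3b exceeded Dnmt3a in every condition, 3.22 ± 0.197 times in wild-type siGLO cells and 5.99 ± 0.955 times in Stag2-/- siStag1 cells. With the longest transcript these ratios were 2.22 ± 0.136 and 4.12 ± 0.657. Without a length, Dnmt3a and Dnmt3b stood at 293 ± 62.5 and 288 ± 45.4 CPM in wild-type siGLO cells, so their order there depends on the length. Dnmt3l exceeded the sum of both in wild-type siGLO cells, at a ratio of 1.56 ± 0.112 (1.95 ± 0.131 with the longest transcript). In Stag2-/- siGLO cells that ratio was 0.478 ± 0.165 and in Stag2-/- siStag1 cells 0.381 ± 0.0817, and no library of either overlapped the 3 conditions with intact Stag2, whose means ran from 1.33 to 1.56. The ratio of Dnmt3b to Tet2 was 5.48 ± 0.300 in wild-type siGLO, 10.1 ± 0.737 in wild-type siStag1, 14.7 ± 1.55 in Stag1-/- siGLO, 22.7 ± 1.95 in Stag2-/- siGLO and 54.9 ± 3.54 in Stag2-/- siStag1 cells. Its 5 ranges did not overlap. With the longest transcript as the length, this ratio was 3.52 ± 0.193 in wild-type siGLO and 35.3 ± 2.28 in Stag2-/- siStag1 cells, so its level depends on the length used. These ratios are given as a description without a test, since the members were known to move apart.

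Tdg, the glycosylase that removes oxidised methylcytosine, had 0 to 2 counts in every library, under the 3 counts taken as the floor of detection, and was not tested. Of the distinct 150-base stretches in its annotated transcripts, 1111 of 5888, or 18.9%, also occur in other genes, among them Gm9855 with 607, Tdg-ps with 582 and Gm5597 with 505. Its exons overlap Glt8d2, a gene on the opposite strand, over 367 bases, and whether the counts used strand is not given in the sources used here. The part of either in the low count was not tested, and the value is not read as a level of Tdg. Shorter overlaps with genes on the opposite strand touch Dnmt3a, Dnmt3l and Tet2, over 133, 67 and 43 bases.

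Part of the spread within conditions went with the replicate number. Dnmt3a, Dnmt3b and Dnmt3l were highest in replicate 1 in 5 of 5 conditions, and Dnmt3a, Dnmt3b and Tet2 were lowest in replicate 3 in 5 of 5. Uhrf1 was lowest in replicate 2 in all 5. In the fit with the replicate number as a term, replicate 3 differed from replicate 1 by -0.72 ± 0.077 (SE) on the log2 scale for Dnmt3a, by -0.74 ± 0.099 for Dnmt3l and by -0.41 ± 0.047 for Dnmt3b. The same term was 0.07 ± 0.096 for Tet3 and 0.02 ± 0.054 for Dnmt1. Nothing in the labels says what a replicate number stands for. Without replicate 1 of all 5 conditions, an alternative chosen after seeing this, the changes of Stag2-/- siStag1 against wild-type siGLO cells kept their calls for Dnmt3a, Dnmt3b, Tet1, Tet2 and Tet3.

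Genes that act on these enzymes or with them were listed by role. Prdm14, a zinc-finger factor of naive ESCs known for holding Dnmt3a, Dnmt3b and Dnmt3l down, stood at 27.0, 24.1 and 25.2 CPM in wild-type siGLO cells and at 0.566, 2.21 and 1.97 CPM in Stag2-/- siStag1 cells. Stag1-/- siGLO cells held 12.4, 10.6 and 13.1 CPM, Stag2-/- siGLO cells 8.14, 9.35 and 12.2 CPM and wild-type siStag1 cells 13.1, 13.0 and 13.4 CPM. All 4 conditions thus lay wholly below wild-type siGLO cells. The share of all genes separating from wild-type siGLO cells ran from 15.5% in wild-type siStag1 to 47.3% in Stag2-/- siStag1 cells. Its log2 fold changes were -1.08 ± 0.23 (SE), edgeR adjusted p = 0.00493 in Stag1-/- siGLO cells, -1.36 ± 0.23 in Stag2-/- siGLO cells (edgeR adjusted p = 0.000818) and -4.01 ± 0.28 in Stag2-/- siStag1 cells (edgeR adjusted p = 5.04e-08). In wild-type siStag1 cells it was -0.95 ± 0.23 (SE), edgeR adjusted p = 0.175, with a blocked edgeR adjusted p of 0.0285. The lowest library, replicate 1 of Stag2-/- siStag1 cells, held 10 counts of Prdm14.

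Of the 10 regulators and cofactors of maintenance, 5 were called in Stag1-/- siGLO cells, 4 in Stag2-/- siGLO cells and 4 in Stag2-/- siStag1 cells, beside 20.0%, 28.3% and 43.9% of all genes. With the block 6 were called in Stag2-/- siGLO cells, beside 39.4%. Dppa3, whose product keeps UHRF1 off chromatin, was highest in Stag1-/- siGLO cells, at 19.8, 26.9 and 33.1 against 8.43, 9.29 and 8.12 CPM (1.63 ± 0.18 (SE), edgeR adjusted p = 1.6e-05). In Stag2-/- siGLO cells Dppa3 changed by 0.75 ± 0.18 (SE), edgeR adjusted p = 0.00741, and in Stag2-/- siStag1 cells by 0.20 ± 0.18 (SE), edgeR adjusted p = 0.414. Zfp57, which protects methylation at imprinted regions, fell to 111, 97.0 and 96.0 CPM in Stag2-/- siStag1 cells from 390.3, 374 and 339 CPM (-1.86 ± 0.14 (SE), edgeR adjusted p = 1.25e-07). It was lower by -0.56 ± 0.14 in Stag1-/- and -0.46 ± 0.14 in Stag2-/- siGLO cells. Ehmt1, a histone methyltransferase of H3 lysine 9, rose in all 3 comparisons, by 0.47 ± 0.1, 0.54 ± 0.1 and 0.72 ± 0.1 in the order Stag1-/-, Stag2-/- and Stag2-/- siStag1.

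**Figure D5:**
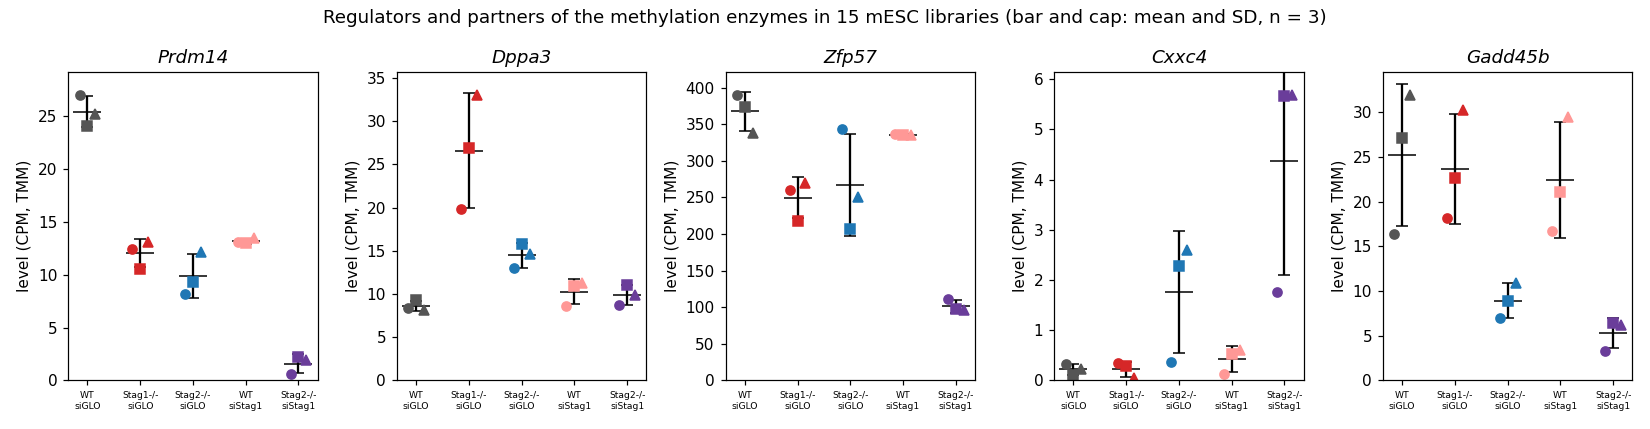
Levels in CPM, on linear axes from 0, of 5 regulators and partners of the methylation enzymes in the 5 conditions, with 1 symbol per library as in the plot of member levels and mean and SD as bar and caps (n = 3). Prdm14 and Zfp57 have their lowest libraries in Stag2-/- siStag1 cells and Dppa3 its highest in Stag1-/- siGLO cells.

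Of 8 TET partners and helpers of demethylation, 4 were called in Stag2-/- siStag1 cells, 2 higher and 2 lower, a share near the 43.9% of all genes. Cxxc4, whose product IDAX binds TET2 and lowers its protein, was near the floor in wild-type siGLO cells, at 0.322, 0.117 and 0.222 CPM, and held 0.365, 2.29 and 2.61 CPM in Stag2-/- siGLO and 1.76, 5.68 and 5.69 CPM in Stag2-/- siStag1 cells. Its log2 fold changes were 2.94 ± 0.76 (SE), edgeR adjusted p = 0.0125 and 4.25 ± 0.73 (SE), edgeR adjusted p = 0.000285, from counts low enough that their size depends on the prior count of the fit. Gadd45b, a stress-induced gene linked to demethylation, changed by -1.49 ± 0.29 and -2.25 ± 0.3 in the same order, and Gadd45g, of the same family, changed by 1.23 ± 0.44 and 1.49 ± 0.44 in the other direction. Idh2, which makes the cosubstrate of TET enzymes, changed by -0.99 ± 0.19 (SE), edgeR adjusted p = 0.000897 in Stag2-/- siStag1 cells.

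Readers, repair genes and methyl donors were listed next. Of 8 methyl-CpG readers 5 were called in Stag2-/- siStag1 cells, 3 higher and 2 lower, beside 43.9% of all genes (22.6% higher and 21.3% lower), led by Zbtb33, which encodes KAISO (0.89 ± 0.13 (SE), edgeR adjusted p = 8.65e-05), and with Mbd3 at 0.44 ± 0.12 and Zbtb38 at -0.43 ± 0.15. Of 10 base excision repair genes 6 were lower and 0 higher beside the same background, among them the polymerase Polb (-0.57 ± 0.11 (SE), edgeR adjusted p = 0.000597) and the glycosylases Ung (-0.32 ± 0.095) and Smug1 (-0.55 ± 0.16). The median of the repair list was -0.26, beside 0.01 for all genes. Neil3, another glycosylase, was not called there (0.44 ± 0.31). Of 7 genes of the S-adenosylmethionine cycle, which supplies the methyl group, 2 were higher and 2 lower, again near the share of all genes, with Mthfd1 at -0.49 ± 0.082 (SE), edgeR adjusted p = 0.00023, Mtr at -0.21 ± 0.086 and Mat2a at 0.47 ± 0.21.

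Germline genes that ESCs are known to hold low by promoter methylation were read as an output of the system, 10 of 12 of them tested (not Asz1 and Tex101). Their summed level was 111 to 118 CPM in wild-type siGLO libraries, 82.2 to 93.7 in Stag1-/- siGLO and 82.0 to 109 in Stag2-/- siGLO libraries. It was 155 to 165 CPM in wild-type siStag1 and 132 to 147 CPM in Stag2-/- siStag1 libraries. Both siStag1 conditions thus lay above all 3 siGLO conditions. An effect of the siRNA itself and depletion of STAG1 cannot be told apart here. Ddx4 was the largest part of the sum, at 42.2 ± 4.07 CPM in wild-type siGLO and 64.3 ± 5.91 CPM in wild-type siStag1 cells (mean ± SD, n = 3). Against wild-type siGLO cells, 4 were lower and 0 higher in Stag1-/- siGLO cells, beside 9.93% and 10.1% of all genes, with the RNA-binding gene Dazl at -1.21 ± 0.16 (SE), edgeR adjusted p = 9.99e-05 and the kinase-related Stk31 at -0.76 ± 0.21. In Stag2-/- siGLO cells 3 were lower and 0 higher, beside 14.4% and 13.9% of all genes (4 and 1 with the block). In Stag2-/- siStag1 cells 4 were higher and 0 lower, beside 22.6% and 21.3% of all genes, with the ATP carrier Slc25a31 at 1.59 ± 0.28 (SE), edgeR adjusted p = 0.000369. The helicase Ddx4 was the 1 called in wild-type siStag1 cells, at 0.61 ± 0.11 (SE), edgeR adjusted p = 0.0348, beside 0.248% of all genes, and 3 passed with the block, beside 1.63%. Methylation itself was not measured, and the part of any member in these values was not tested.

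Markers of cell state also changed, and those of the epiblast differed between the knockouts. Of 8 ESC markers 3 were lower in Stag1-/- siGLO, 5 in Stag2-/- siGLO, 2 in wild-type siStag1 and 8 in Stag2-/- siStag1 cells, beside 9.93%, 14.4%, 0.145% and 21.3% of all genes, and none was higher. With the block the first 3 counts were 5, 6 and 3, beside 30.6%, 39.4% and 1.63% of all genes called in either direction. Their summed level went from 3691 to 4022 CPM in wild-type siGLO libraries to 1632 to 1801 CPM in Stag2-/- siStag1 libraries. Of 8 markers of the formative and primed epiblast 7 were higher in each of the Stag2-/- siGLO and Stag2-/- siStag1 conditions, 2 in Stag1-/- siGLO cells and 0 in wild-type siStag1 cells (3 with the block). The shares of all genes called higher were 13.9%, 22.6%, 10.1% and 0.103% in that order. They summed to 97.8 to 117 CPM in wild-type siGLO and 422 to 510 CPM in Stag2-/- siStag1 libraries. The epiblast factors Sox3 and Lef1 were at 2.94 ± 0.2 and 3.49 ± 0.28 and Zic2 and Fgf5 at 2.20 ± 0.24 and 3.35 ± 0.38 in Stag2-/- siStag1 cells. The part of cell state in the members' changes was not tested, and a shift of all cells and a change in the share of cells in each state cannot be told apart.

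Of 11 markers of differentiated lineages 9 were called in Stag2-/- siStag1 cells, 3 higher and 6 lower, beside 22.6% and 21.3% of all genes, with the neural factor Pax6 at 3.48 ± 0.33 and the endoderm factors Gata4, Gata6 and Sox17 at -2.21 ± 0.18, -2.58 ± 0.35 and -2.95 ± 0.34. Sox1, another neural factor of the list, named here after its values were seen, held 3.11, 12.9 and 27.8 CPM against 31.1, 20.7 and 24.0 CPM and was not called (-0.79 ± 0.53 (SE), edgeR adjusted p = 0.263). Fibroblast markers, which would mark feeder cells, summed to 16.6 to 38.0 CPM over all 15 libraries, with 4 of 6 tested. Of these Col3a1 was called higher in Stag2-/- siGLO (2.10 ± 0.85) and Stag2-/- siStag1 cells (1.98 ± 0.85), and Postn and Twist2 did not pass the filter. Markers of the two-cell-like state, 4 of 6 tested (not Tcstv3 and Zfp352), were lower in Stag1-/- siGLO cells for 4 of 4, beside 9.93% of all genes, and in Stag2-/- siGLO cells for 2 of 4, beside 14.4%. In Stag1-/- siGLO cells Zscan4d was at -4.74 ± 0.66, Zscan4c at -4.24 ± 0.58, Usp17la at -3.85 ± 0.61 and Zscan4f at -3.60 ± 0.72, and the Zscan4 copies share sequence so that reads can be split between them.

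Across the 15 libraries, log2 levels of Tet2 and Tet3 ran opposite (Pearson r = -0.886) and those of Dnmt3b and Tet3 together (r = 0.831), as did Dnmt3l and Tet1 (r = 0.813) and Tet1 and Tet2 (r = 0.813). Dnmt3a and Dnmt3b had r = 0.785. These values describe 15 points that share 5 conditions and 3 replicate numbers and carry no test. By the same measure, over genes with a mean of at least 10 CPM, the genes nearest to Dnmt3b were Spred3 (r = 0.982), Usf1 (0.976) and Qser1 (0.968). Those nearest to Tet2 were Lap3 (0.973), Mylpf (0.970) and Sept1 (0.968), and to Tet3 Mmp25 (0.979), Ankrd6 (0.972) and Mast4 (0.968). For Dnmt3a they were Aqr (0.959), Txnrd1 (0.945) and Wt1 (0.941), for Dnmt3l Trim24 (0.953), Snapc3 (0.930) and S1pr2 (0.930), and for Tet1 Fam63a (0.969), Pcolce (0.958) and Dgke (0.958). Dnmt1 and Uhrf1 had less close neighbours, Wbp7 (0.905), Rcor2 (0.877) and Atn1 (0.856) for Dnmt1 and Ikbkb (0.883), Rpap1 (0.854) and Haus5 (0.854) for Uhrf1.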

How the data were processed

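RNA was sequenced from 15 polyA libraries of mESCs, grouped by genotype and siRNA as the labels give them. The authors aligned the reads with STAR to mm10 and deposited 1 table of raw counts per gene and library. The counting tool, annotation and strand setting are not given in the sources used here. Counts on genes made up 76.6% to 80.2% of each file, and the lines for ambiguous, multimapping, unassigned and unmapped reads were left out.

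Genes were filtered with filterByExpr (minimum count 10, minimum total 15) and scaled by TMM, and all 15 libraries were fitted with 1 coefficient per condition by edgeR 4.0.16 in R 4.3.3 (quasi-likelihood test, Benjamini-Hochberg over the 14508 genes tested, adjusted p under 0.1 called). Levels are CPM on TMM-scaled library sizes. SE is the log2 fold change over the root of F. The alternatives were DESeq2 1.42.0, other scalings, filters and thresholds, the libraries compared alone, a replicate block, and each replicate left out. The code was tested on simulated counts. Replicate numbers come from the labels, which do not say what they mark. Deviations of same-numbered libraries correlated over 0.1 in every pair (0.192 to 0.801) in 6 comparisons. The main fit did not pair the libraries of these either, and the replicate block, which does, is an alternative given beside it. Blocked values of other comparisons are given as not fully paired. In Stag2-/- siStag1 against wild-type siGLO or siStag1 cells the lowest pair was at 0.0899 and -0.0872, so the numbers do not pair all of their libraries. No 2 libraries of the same condition were copies, since their counts differed by a chi-square of 4.70 to 26.8 per degree of freedom over 15 pairs. Libraries of different conditions were not compared in this way.

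Members and gene lists were chosen with earlier results of these data known. The genes named were the 9 members in each comparison, up to 4 genes of each list with the lowest p over the 5 conditions among those that passed, Prdm14, Dppa3, Stag1 and Stag2, and the 3 genes nearest to each member by correlation over the libraries. Positions and sequences are from GENCODE (mm10) and RefSeq (GRCm38.p6), in which all 9 symbols matched. Values of 2 genes that this rule names are not reported here. Other assays of the study were not analysed here.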

Additional observations from a re-analysis of the deposited data

Results flagged for a closer look

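In 5 genes of the companion lists the effect of siStag1 in Stag2-/- cells differed from its effect in wild-type cells, by the test of the difference itself in edgeR over all 14508 genes. All are factors of naive ESCs or, for Zfp57, of imprint maintenance, and all fell further in Stag2-/- cells. The difference was -1.76 ± 0.19 (SE) on the log2 scale for Tfcp2l1 (edgeR adjusted p = 0.000703), -1.49 ± 0.20 for Esrrb (edgeR adjusted p = 0.00398) and -1.26 ± 0.20 for Zfp57 (edgeR adjusted p = 0.0145). For Klf4 it was -1.11 ± 0.22 (edgeR adjusted p = 0.0676) and for Tbx3 -1.02 ± 0.18 (edgeR adjusted p = 0.0444). In wild-type cells Zfp57 changed by -0.13 ± 0.14 after siStag1. The lists were chosen with results of these data known. Stag1 RNA after siStag1 was at 25.4 ± 4.77 CPM in wild-type and 39.8 ± 4.55 CPM in Stag2-/- cells, and its part in the difference was not tested.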

How the results depend on the processing

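Over 1312 alternative values of the tested members, 1174 kept their direction and side of the threshold, 65 lost a call, 41 gained one and 32 changed sign, and none of the 32 belonged to a called value. The calls of Dnmt3b and Tet2 in both single knockouts, of Tet3 in Stag2-/- siGLO cells and of Dnmt3a, Dnmt3b, Tet1, Tet2 and Tet3 in Stag2-/- siStag1 cells against wild-type siGLO cells held under all 15 alternatives each. The cause of the shifts below was not tested.

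The replicate block raised the members called from 4 to 7 in Stag2-/- against wild-type siGLO cells, from 0 to 3 in wild-type siStag1 cells, from 2 to 5 for siStag1 in Stag2-/- cells, from 1 to 4 in Stag1-/- siGLO against wild-type siStag1 cells and from 0 to 1 (Tet2, -0.53 ± 0.12, edgeR adjusted p = 0.0489) in the test of the difference between the 2 siStag1 effects, where the numbers do not pair all libraries. Between the knockouts it gave 5 in place of 4 members and 5416 in place of 3722 genes. In Stag2-/- siStag1 cells, where the numbers do not pair all libraries either, it gave 7 in place of 5 members against wild-type siGLO cells, with Dnmt3l and Uhrf1 (edgeR adjusted p = 0.0479) added, and 7 in place of 6 against wild-type siStag1 cells, with Dnmt3l added (-0.60 ± 0.13, edgeR adjusted p = 0.00142). Genes called went from 2907 to 4443 in Stag1-/- siGLO cells, from 4110 to 5723 in Stag2-/- siGLO cells, from 36 to 236 in wild-type siStag1 cells, from 924 to 2049 for siStag1 in Stag2-/- cells, from 2326 to 3850 in Stag1-/- siGLO against wild-type siStag1 cells and from 23 to 138 in the difference. Over all comparisons 18 member values gained a call under the block and 0 lost one.

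In wild-type siStag1 cells the 36 genes became 22 at a threshold of 0.05, 131 with DESeq2, 126 with only the libraries compared and 65 without replicate 1 of all conditions. For siStag1 in Stag2-/- cells the 924 became 548 at 0.05 and 224 with only the libraries compared, where 1 member was called. Between the knockouts, only the libraries compared gave 2 members and 2406 genes in place of 4 and 3722. In Stag1-/- siGLO against wild-type siStag1 cells, the 1 member became 0 at 0.05 and with at least 10 counts in every library, and 2 with DESeq2 and without replicate 1 of all conditions. For the difference of siStag1 effects, DESeq2 called 102 genes, the libraries compared 14 and the fit without replicate 1 of all conditions 95.

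Leaving out 1 replicate in turn gave, for Stag1-/-, Stag2-/- and Stag2-/- siStag1 cells against wild-type siGLO cells, 2 to 3, 3 to 5 and 5 to 6 members and 1915 to 2748, 2524 to 3985 and 5166 to 6218 genes. Wild-type siStag1 cells had 0 members and 1 to 15 genes. Between the knockouts 2 to 5 members and 2539 to 3522 genes were called, for siStag1 in Stag2-/- cells 2 members and 416 to 1484 genes, and in Stag2-/- siStag1 against wild-type siStag1 cells 4 to 6 members and 4237 to 5324 genes. Stag1-/- siGLO against wild-type siStag1 cells gave 0 to 1 members and 1464 to 2404 genes, the difference of siStag1 effects 0 members and 13 to 76 genes, and the test over all conditions 5 to 8 members and 6579 to 7708 genes.

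No called value changed sign. Among the others, without replicate 1 of all conditions these were Dnmt1 in Stag1-/- siGLO cells (-0.016), Uhrf1 in Stag2-/- siGLO cells (-0.011) and Tet2 between the knockouts (0.096). Tet2 between the knockouts was 0.0054 with no filter, and Tet1 in Stag1-/- siGLO against wild-type siStag1 cells was -0.000709 with library size alone. With 1 replicate left out, the log2 fold changes that crossed 0 ran as follows from lowest to highest. They were Dnmt3a -0.057 to 0.28 and Tet1 -0.047 to 0.15 in Stag1-/- against wild-type siGLO cells, Uhrf1 -0.038 to 0.046 in Stag2-/- against wild-type siGLO cells, Tet1 -0.084 to 0.13 in wild-type siStag1 cells, Tet2 -0.090 to 0.12 between the knockouts, Dnmt3a -0.0085 to 0.68 and Dnmt3l -0.37 to 0.48 for siStag1 in Stag2-/- cells, Tet1 -0.075 to 0.12 in Stag1-/- siGLO against wild-type siStag1 cells, and Dnmt1 -0.024 to 0.10 and Dnmt3a -0.42 to 0.27 and Dnmt3l -0.61 to 0.24 and Uhrf1 -0.082 to 0.0022 in the difference of siStag1 effects.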
